A study of Mus musculus with 22 samples.

Results

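A group of 34 genes of cushion, valve and fibroblast mesenchyme was followed through the embryonic hearts of a Prdm16 study in mice. The genes were listed by name, with no threshold on a measured value but with earlier results of these data known. All 34 were found among the 54356 genes of the deposited files. They comprise 9 transcription factors of mesenchymal cells, 3 receptors and adhesion molecules, 4 genes of hyaluronan synthesis and binding, 4 small leucine-rich proteoglycans, 7 matricellular and adhesive glycoproteins, 4 elastic fibre and microfibril proteins and 3 lysyl oxidases.

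Heart valves begin as cushions, swellings of hyaluronan-rich matrix between myocardium and endocardium. Endocardial cells delaminate into this matrix under transforming growth factor beta, bone morphogenetic protein and Notch signals, switch on factors such as Snai1, Twist1 and Sox9, and become the mesenchyme from which valve leaflets and septa form. Fibroblasts of the ventricular wall arise mainly from the epicardium, and both populations lay down matrix built on fibronectin, versican, periostin, proteoglycans and elastic microfibrils.

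RNA was measured by bulk sequencing of stranded mRNA libraries at embryonic day E13.5 on a C57BL/6 background. The groups were Prdm16 conditional knockout (cKO) and littermate control, labelled Mock and titled WT, each genotype with 3 whole hearts, 4 left ventricles and 4 right ventricles. The Cre driver, the Prdm16 alleles and whether the controls carried either are not given in the sources used here. No treatment other than the genetic one is named, and the labels do not say which ventricles came from the same heart, so p-values measure the spread between these libraries.

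Salmon assigned 38590751 to 62004017 reads per whole heart and 14508722 to 22830716 per ventricle library. Prdm16 had 19.0 to 22.3 CPM (read counts scaled to library size with TMM factors, not corrected for gene length) in cKO whole hearts against 37.4 to 45.3 CPM in control whole hearts. It had 21.6 to 23.4 CPM in cKO left ventricles against 45.4 to 56.2 CPM in control left ventricles, and 22.2 to 25.8 CPM in cKO right ventricles against 37.5 to 44.3 CPM in control right ventricles, with no overlap in any tissue. edgeR's biological coefficient of variation for whole hearts, 0.184, fell to 0.107 without control 1, and that for ventricles, 0.0929, to 0.0735 without right ventricle control 2, so results that rest on those libraries are given with and without them.

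Right ventricle control 2 stood apart in these genes, which every comparison with it has to take into account. That it is rich in them was known when the genes were chosen, so the values that follow describe the library and test nothing. It was above the other 3 right ventricle controls for 33 of the 34 genes, against 45.7% of all 16431 genes with a level in those controls. It was above all 15 other ventricle libraries for 26 of the 34. Its level in TPM (Salmon's abundance, which corrects for transcript length and library size) was over 2 times the mean of the other 3 controls for 23 genes and over 5 times for 12, against 4.67% and 0.70% of all genes. The median ratio was 3.16 for the 34 genes and 1.07 for all genes. Fits without control 2 leave out a library known to be high in these same genes, so their calls and p-values depend on that choice.

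The largest ratio was that of Cthrc1, a secreted collagen triple helix repeat protein of activated fibroblasts, at 44.5 TPM in control 2 and 1.16, 0.66 and 1.11 TPM in controls 1, 3 and 4. Eln, the elastin of arterial and valve elastic fibres, was at 203 TPM in control 2 and 5.33, 7.94 and 9.29 TPM in the other 3. Has2, the synthase that makes the hyaluronan of the cushions, was at 5.46 TPM in control 2 and 0.338, 0.294 and 0.42 TPM in the other 3. Ogn, which encodes the proteoglycan osteoglycin, was the exception, at 8.93 TPM in control 2 and 10.2, 11.2 and 9.5 TPM in the other 3.

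The levels in control 2 were also set beside those of control whole hearts, which include the valves. Of the 34 levels in control 2, 9 lay within the range of the 3 control whole hearts, 9 above it and 16 below it. The share of all genes within that range is not given here. Meox1, a homeobox factor of mesenchyme, was at 25.8 TPM in control 2 and 20 to 26.5 TPM in control whole hearts. Postn, the matricellular protein periostin of cushion mesenchyme, was at 266 TPM in control 2 and 437 to 490 TPM in control whole hearts.

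The sums of cartilage and of outflow tract markers were also high in this library, while those of epicardial and endothelial markers were not. Epicardial markers summed to 153 TPM in control 2 and 173 to 210 TPM in the other 3 right ventricle controls. Endothelial and endocardial markers summed to 684 TPM and 665 to 722 TPM. The summed TPM of 10 cartilage markers was 102 in control 2 and 27 to 32.2 in the other 3 right ventricle controls. Col2a1, a fibrillar collagen of cartilage, added most to that excess, at 38.5 TPM in control 2 against 17.1, 12.7 and 17.2 TPM, and the ratio was largest for Col9a1, which encodes a chain of collagen IX, at 14.9 TPM against 0.16, 0.0687 and 0.335 TPM. Comp went the other way, at 0.635 TPM in control 2 against 1.27, 1.65 and 0.779 TPM, and Matn1 was at 0 TPM in control 2. Control whole hearts also held these RNAs, with a cartilage sum of 74.6 to 82.0 TPM and Col9a1 at 12.7, 11.8 and 14.4 TPM. The sum of 8 outflow tract and second heart field markers was 30.9 TPM in control 2 and 13.8 to 14.7 TPM in the other 3, with the second heart field factor Isl1 at 2.86 TPM against 0.0499, 0.133 and 0.121 TPM. The sum of 10 cardiomyocyte markers was 27229 TPM in control 2 and 29421 to 30017 TPM in the other 3. The part of these tissues in the result was not tested.

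**Figure D1:**
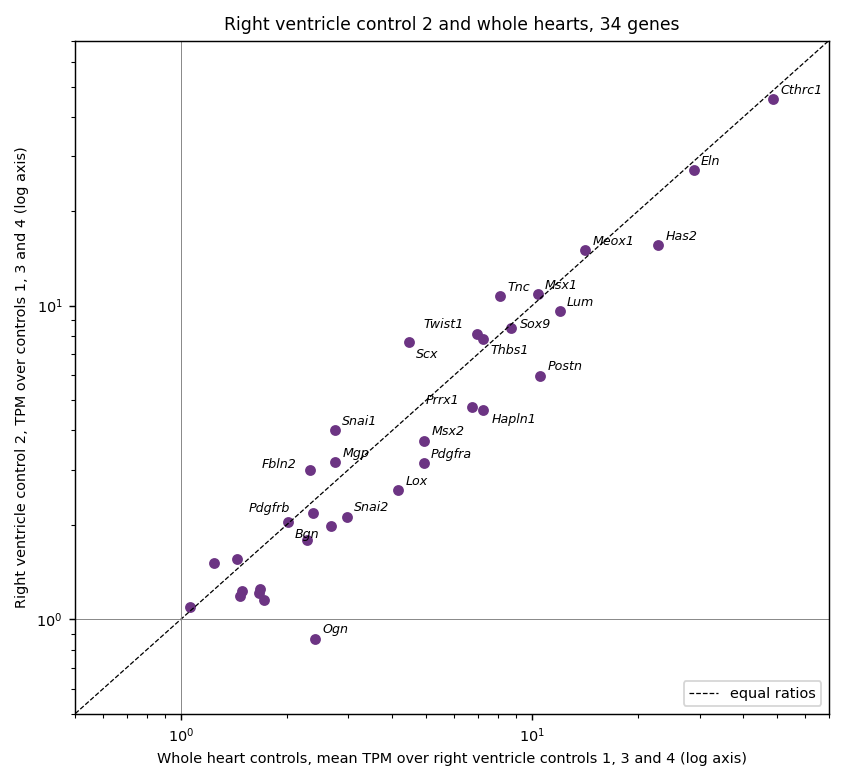
Each point is 1 of the 34 genes, with the mean TPM of the 3 control whole hearts (horizontal log axis) and the TPM of right ventricle control 2 (vertical log axis), both divided by the mean of right ventricle controls 1, 3 and 4. Points near the dashed line had about the same excess in that library as in a whole heart, from Cthrc1 at 45.6 times down to Ogn at 0.867 times.

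In control left ventricles the 34 levels spanned from Sparc to Acan. Sparc, a collagen-binding matricellular protein, was at 760 ± 23.8 TPM (SD, n = 4), and Fn1, the fibronectin on which cells migrate and adhere, at 451 ± 14.4 TPM. Postn at 126 ± 34.9 TPM and Mgp, the calcification inhibitor matrix Gla protein, at 120 ± 15.8 TPM followed, and these neighbours did not differ beyond their spread. In a bulk sample, fewer cells of a type and less RNA per cell cannot be told apart, for these levels and for every difference that follows.

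A run of 7 genes then lay close together. Bgn, the proteoglycan biglycan, was at 89.1 ± 12.2 TPM, Vcan, the hyaluronan-binding proteoglycan versican of the cushions, at 88 ± 13.7 TPM and Fbln1, the matrix glycoprotein fibulin 1, at 82.8 ± 3.85 TPM. Loxl2, a lysyl oxidase that cross-links collagen, was at 82 ± 4.74 TPM, Dcn, the proteoglycan decorin, at 78.7 ± 9.58 TPM, Cdh11, the cadherin of mesenchymal cells, at 73.6 ± 2.42 TPM and Fbln2, fibulin 2, at 69.6 ± 7.85 TPM. In the whole order of 34, a gene exceeded its lower neighbour by more than the sum of both SDs at only 7 steps, those below Sparc, Fn1, Mgp, Fbln2, Fbn1, Pdgfrb and Msx1.

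Below these stood Fbn1, the fibrillin of microfibrils, at 33.7 ± 1.59 TPM, Thbs1, the glycoprotein thrombospondin 1, at 20.5 ± 3.05 TPM and Loxl1, a lysyl oxidase of elastic fibres, at 18 ± 1.47 TPM. Hapln1, which links versican to hyaluronan, was at 14.2 ± 3.55 TPM and Pdgfra, a receptor for platelet-derived growth factor on fibroblasts and their precursors, at 13.8 ± 2.27 TPM. Eln was at 12 ± 3.34 TPM, Lum, the proteoglycan lumican, at 11.6 ± 5.34 TPM, Ogn at 11.2 ± 0.809 TPM and Pdgfrb, the receptor of pericytes and mural cells, at 10.5 ± 1.19 TPM. Lox, the founding lysyl oxidase, was at 7.15 ± 0.975 TPM, Cthrc1 at 6.14 ± 1.84 TPM, Tnc, the anti-adhesive glycoprotein tenascin C, at 5.13 ± 1.76 TPM and Has2 at 1.55 ± 0.529 TPM.

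The transcription factors were all low. Snai2 and Snai1, repressors of epithelial genes, were at 7.02 ± 1.11 and 3.21 ± 0.705 TPM, Meox1 at 5.73 ± 1.96 TPM, the mesenchymal factor Twist1 at 5.03 ± 2.2 TPM and Sox9, a factor of cushion and cartilage cells, at 2.64 ± 0.671 TPM. The homeobox factors Prrx1, Msx2 and Msx1 were at 2.44 ± 0.977, 2.27 ± 0.315 and 1.38 ± 0.504 TPM, and Scx, the tendon and valve factor scleraxis, at 2.4 ± 0.362 TPM. Acan, the large cartilage proteoglycan aggrecan, which is also made in developing valves, was last at 0.321 ± 0.109 TPM.

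Whole hearts held more of almost all of these RNAs than ventricles. The mean of the control whole hearts was above both ventricle means for 31 of the 34 genes, the right ventricle being taken without control 2, and the median ratio was 2.23 over the left and 3.57 over the right ventricle. Relative to the left ventricle Eln was highest, with 217 TPM in control whole hearts, 12 TPM in left and 7.52 TPM in right ventricles. Relative to the right ventricle Cthrc1 was highest, with 47.4 TPM in whole hearts, 6.14 TPM in left and 0.975 TPM in right ventricles. Fbln1, Sparc and Loxl1 were the 3 without this excess, and Fbln1 had 63.1 TPM in whole hearts, 82.8 TPM in left and 37.6 TPM in right ventricles. Whole hearts were separate and deeper libraries, so these are levels side by side with no test. The same count over all genes is not given here, so the excess cannot be called particular to these genes.

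**Figure D2:**
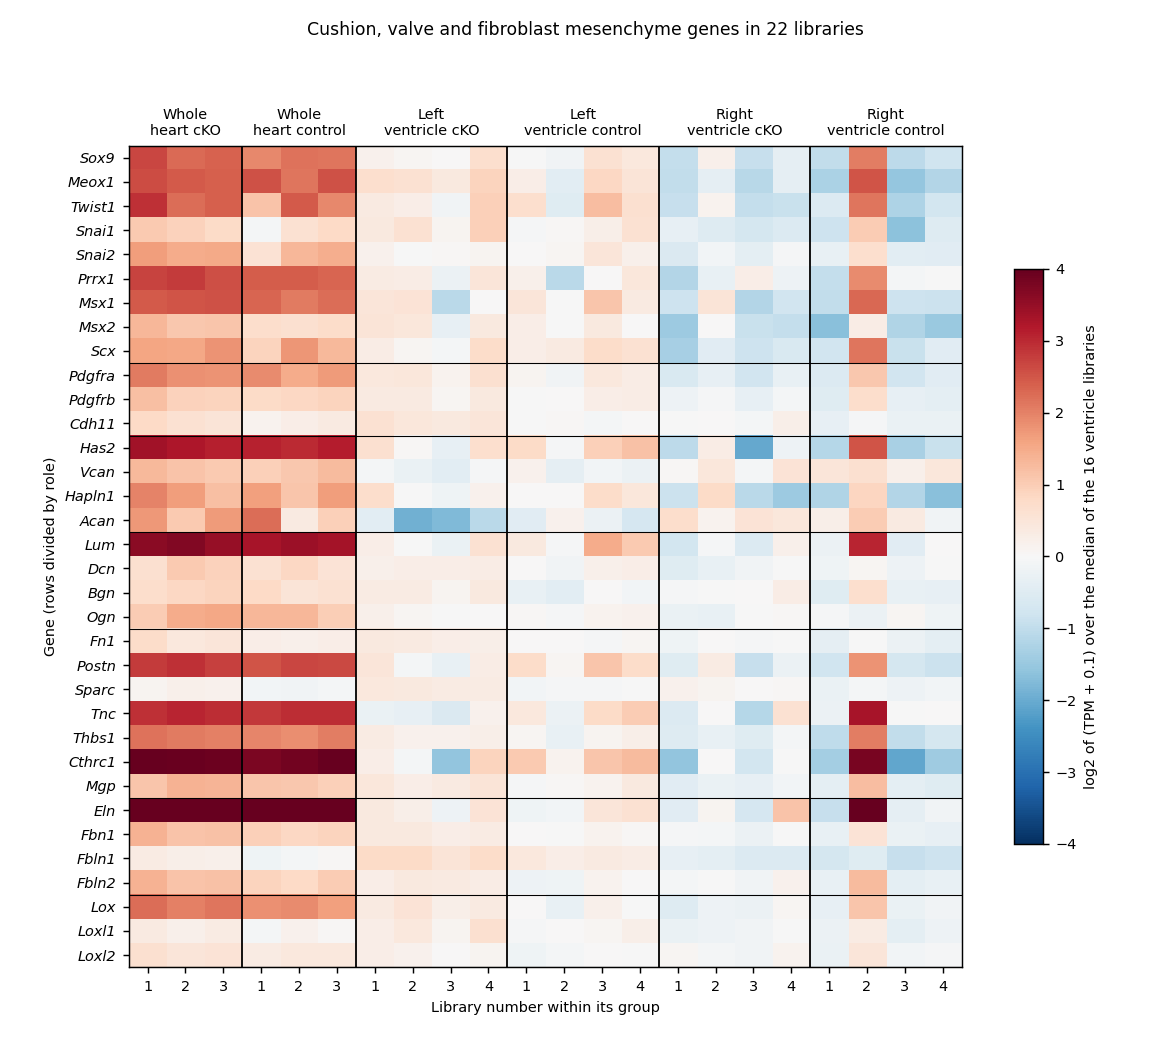
Rows are the 34 genes, divided by role, and columns the 22 libraries. Colour is the log2 of TPM + 0.1 over the gene's median across the 16 ventricle libraries, drawn at 4 where it is larger. Whole hearts and right ventricle control 2 are red for most genes, and the 7 other right ventricle libraries are mostly pale blue.

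Promoters are shown for Fbln1 and Acan, because among the genes with an entry they were the most significant in the left against right ventricle comparison of the cKO, in opposite directions. The first of 2 Fbln1 windows is given. Both are RefSeq sequences on GRCm38.p6, 250 bases before to 50 after the transcription start, plus strand, 5′ to 3′. Capitals mark each CANNTG, the E-box core bound by basic helix-loop-helix factors such as Twist1 and Scx and, as CAGGTG, by Snai1 and Snai2.
Fbln1, chr15:85205699-85205998: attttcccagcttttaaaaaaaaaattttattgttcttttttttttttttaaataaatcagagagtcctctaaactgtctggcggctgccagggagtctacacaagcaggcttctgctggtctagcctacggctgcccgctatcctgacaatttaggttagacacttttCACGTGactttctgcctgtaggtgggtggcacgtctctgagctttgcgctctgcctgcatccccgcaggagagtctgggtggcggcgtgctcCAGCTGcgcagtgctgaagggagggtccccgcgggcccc
Acan, chr7:79052976-79053275: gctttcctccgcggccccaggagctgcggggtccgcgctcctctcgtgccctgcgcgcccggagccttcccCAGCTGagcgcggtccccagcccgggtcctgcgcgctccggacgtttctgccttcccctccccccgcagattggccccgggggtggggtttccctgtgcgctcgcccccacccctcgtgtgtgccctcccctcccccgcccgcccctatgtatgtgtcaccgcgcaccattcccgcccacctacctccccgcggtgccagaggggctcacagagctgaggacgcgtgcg

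The Fbln1 window held 2 CANNTG matches and the Acan window 1, and neither held CAGGTG on either strand. CANNTG, which reads the same on both strands, occurred in 72.3% of all 32851 promoter windows of that length, and CAGGTG, which is one form of it, in 20.2%. Promoter windows were found for 17 of the 34 genes, of which 13 held CANNTG and 3 held CAGGTG.

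In the left ventricle 4 of the 34 genes rose and 2 fell at an adjusted p below 0.05. That was tested with edgeR's quasi-likelihood F test with Benjamini-Hochberg adjustment over all 16448 genes tested, and the background was large, with 25.6% of all genes called, 12.3% higher and 13.4% lower. All 34 genes passed the filter on low counts here and in the whole hearts. The median log2 fold change, cKO over control, was 0.10 for the 34 genes and -0.00083 for all genes. Without right ventricle control 2, 8 rose and 3 fell against 29.2% of all genes called, 14.0% higher and 15.2% lower. That library is in neither group here and enters through the shared filter, scaling and estimate of the spread.

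Cdh11 (ENSMUSG00000031673.6, chr8:102632095-102785642 on GRCm38) rose. Cdh11 had 276, 272, 277 and 270 CPM in cKO left ventricles and 205, 198, 186 and 188 CPM in control left ventricles. Every cKO library lay above every control, and the log2 fold change was 0.50 ± 0.045 (SE), edgeR adjusted p = 5.86e-07. Sparc (ENSMUSG00000018593.13, chr11:55394500-55423183) also separated completely. Sparc had 1791, 1775, 1708 and 1767 CPM in cKO left ventricles and 1304, 1377, 1389 and 1403 CPM in control left ventricles, a log2 fold change of 0.36 ± 0.032 (SE), edgeR adjusted p = 4.59e-07.

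Fibulin 1 and fibronectin rose by less. Fbln1 had 210, 203, 198 and 202 CPM in cKO left ventricles and 173, 163, 173 and 170 CPM in control left ventricles, a log2 fold change of 0.26 ± 0.052 (SE), edgeR adjusted p = 0.00123. Fn1 had 2389, 2458, 2335 and 2293 CPM in cKO left ventricles and 1871, 1998, 1972 and 2044 CPM in control left ventricles, a log2 fold change of 0.26 ± 0.044 (SE), edgeR adjusted p = 0.000262. Neither gene's groups overlapped.

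Both genes that fell belong to the large hyaluronan-binding proteoglycans. Vcan had 311, 325, 321 and 341 CPM in cKO left ventricles and 457, 450, 513 and 431 CPM in control left ventricles, with every cKO library below every control and a log2 fold change of -0.51 ± 0.12 (SE), edgeR adjusted p = 0.00334. Acan had 0.861, 0.225, 0.341 and 0.931 CPM in cKO left ventricles and 1.92, 2.22, 2.32 and 1.17 CPM in control left ventricles, again with no overlap, and the log2 fold change was -1.69 ± 0.36 (SE), edgeR adjusted p = 0.0022. Acan rested on few reads, 4 to 17 per cKO library and 22 to 54 per control library. On the log2(TPM + 1) scale, which understates changes of low genes, Acan changed by -0.23 with a limma adjusted p of 0.14.

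For Vcan (ENSMUSG00000021614.16, chr13:89655312-89742509) the size of the fall depended on how transcript lengths entered. With length-scaled counts its log2 fold change was -0.15 (edgeR adjusted p = 0.499), and in limma on log2(TPM + 1) it was -0.08 (adjusted p = 0.782). The gene's TPM includes Vcan-204, a transcript of 294 bases that Salmon gave 25.6 ± 7.78% of the gene's TPM in cKO left ventricles and 5.91 ± 11.8% in control left ventricles (SD, n = 4 each). The summed TPM of transcripts over 5000 bases, those that encode the long versican forms, was 39.5, 38.7, 38.7 and 37.0 in cKO left ventricles and 54.5, 53.0, 61.7 and 51.5 in control left ventricles, with no overlap. How Salmon divides reads among isoforms has its own uncertainty, which the files do not give.

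The other members of the group gave no call in the left ventricle with all libraries. Without right ventricle control 2, Bgn was called higher at 0.40 (adjusted p = 0.000597), Fbln2 at 0.33 (adjusted p = 0.00211), Fbn1 at 0.27 (adjusted p = 4.37e-05) and Lox at 0.34 (adjusted p = 0.03), all log2 fold changes by edgeR. With all libraries the same fold changes had adjusted p values of 0.0899, 0.359, 0.115 and 0.32. Tnc was called lower without that library at -0.83 (adjusted p = 0.0492), although 17.8, 17.3, 15 and 25.5 CPM in cKO left ventricles overlapped 29.6, 19.3, 39.2 and 46.4 CPM in control left ventricles, and its adjusted p with all libraries was 0.429.

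None of the 9 transcription factors was called in the left ventricle by edgeR, with or without right ventricle control 2. Their log2 fold changes ran from -0.67 for Msx1 to 0.26 for Prrx1, and Msx1 had 2.35, 2.2, 0.74 and 1.37 CPM in cKO and 2.53, 1.65, 4.05 and 2.29 CPM in control left ventricles. Cthrc1 had 2.75, 2.03, 0.797 and 3.4 CPM in cKO and 4.93, 2.6, 5.25 and 5.32 CPM in control left ventricles, a log2 fold change of -1.0 ± 0.37 (SE), edgeR adjusted p = 0.0545 without right ventricle control 2. Postn had 216, 170, 135 and 225 CPM in cKO and 250, 179, 352 and 283 CPM in control left ventricles, with -0.51 ± 0.23 (SE), edgeR adjusted p = 0.106 on the same basis. With all libraries the adjusted p values were 0.518 for Cthrc1 and 0.469 for Postn. Both ranges overlapped, and neither gene was called in either fit.

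Other cell type markers moved with the same contrast, in which 25.6% of all genes were called with all libraries, 12.3% higher and 13.4% lower. Of 12 endothelial and endocardial markers 8 were called higher and 1 lower, and their summed TPM was 869 to 971 in cKO and 709 to 743 in control left ventricles. Of 10 epicardial markers 6 were called higher, with sums of 250 to 280 TPM in cKO and 195 to 213 TPM in controls. Of 10 cardiomyocyte markers 7 were called lower, with sums of 23008 to 24107 TPM in cKO and 24921 to 26780 TPM in controls. Of 12 atrial cardiomyocyte markers 8 were called higher, with sums of 4960 to 5798 TPM in cKO and 3435 to 3660 TPM in controls, and of 10 smooth muscle and pericyte markers 4 higher and 2 lower. Their part in the rises of Cdh11, Sparc, Fbln1 and Fn1 was not tested.

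**Figure D3:**
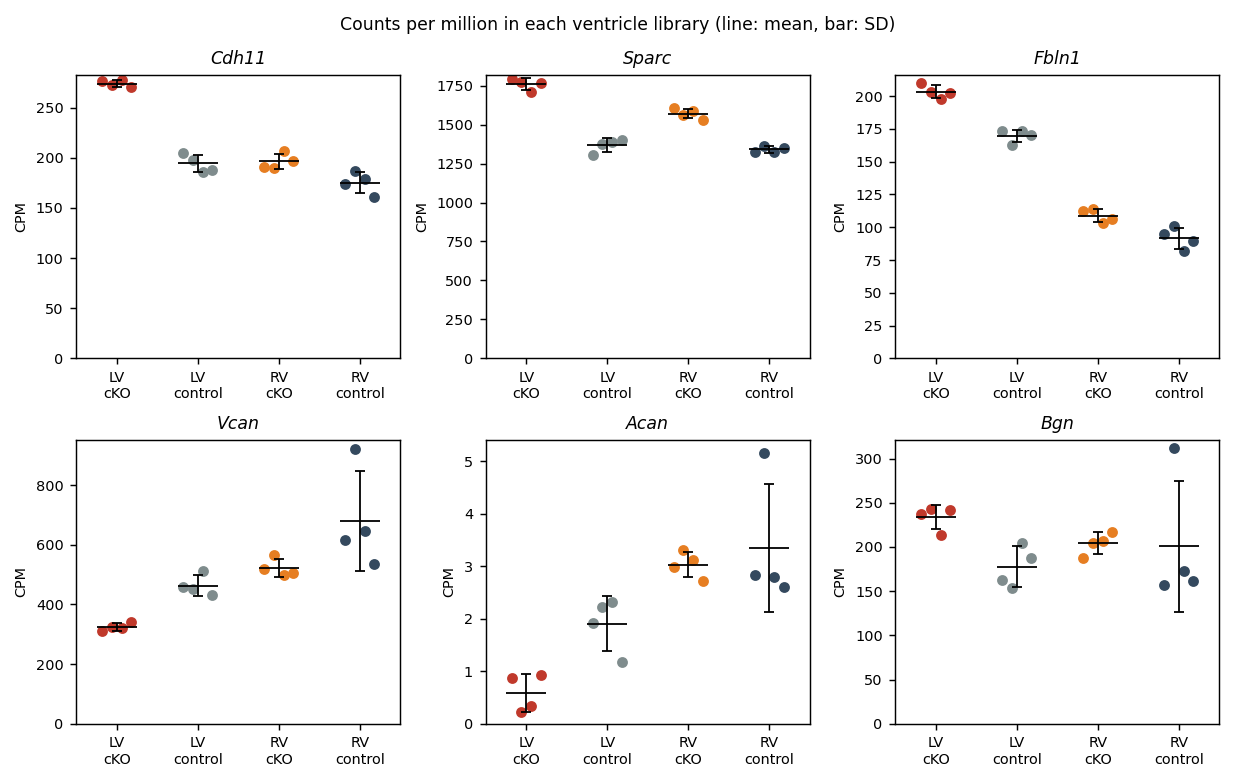
CPM in each of the 16 ventricle libraries for Cdh11, Sparc, Fbln1, Vcan, Acan and Bgn, with points for libraries, a horizontal line for the group mean and a bar for the SD (LV, left ventricle; RV, right ventricle). In the left ventricle the cKO points of all 6 genes are clear of the control points, above them for Cdh11, Sparc, Fbln1 and Bgn and below them for Vcan and Acan.

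In the right ventricle the direction of most of these genes turned on control 2. With all 4 controls, 4 of the 34 genes rose and 1 fell in the cKO, against 10.3% of all genes called, 6.12% higher and 4.19% lower, and the median log2 fold change was -0.37 for the 34 genes and -0.0054 for all genes. Without control 2, 7 rose and none fell, against 14.5% of all genes called, 7.41% higher and 7.12% lower, and the median was 0.21 for the 34 genes and 0.0030 for all genes. The sign of the fold change differed between these fits for 21 of the 34 genes, against 12.1% of the 16442 genes tested in both. Leaving out control 2, which is high in these genes, raises most of their fold changes, and the calls without it depend on that choice.

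Cdh11, Sparc, Fbln1 and Fn1, the same 4 genes that rose in the left ventricle, were called higher in both fits. Sparc had 1606, 1563, 1584 and 1531 CPM in cKO right ventricles, 1326, 1322 and 1352 CPM in right ventricle controls 1, 3 and 4, and 1365 CPM in control 2, a log2 fold change of 0.23 ± 0.032 (SE), edgeR adjusted p = 0.000155 with all controls and 0.24 ± 0.032 (SE), edgeR adjusted p = 8.28e-05 without control 2. Fbln1 had 112, 114, 103 and 106 CPM in cKO right ventricles, 94.5, 81.8 and 89.3 CPM in right ventricle controls 1, 3 and 4, and 101 CPM in control 2, with 0.25 ± 0.053 (SE), edgeR adjusted p = 0.00563 and 0.30 ± 0.047 (SE), edgeR adjusted p = 0.00041 on the same bases. Neither gene's cKO values overlapped those of any control, control 2 included. Both ventricles were fitted in 1 model with a shared estimate of the spread. Their libraries are different samples, but some may come from the same hearts, so the right ventricle need not be an independent repeat. With only the right ventricle libraries in the fit, all controls included, Sparc kept its call, while Fbln1 (edgeR adjusted p = 0.0585), Cdh11 (adjusted p = 0.11) and Fn1 (adjusted p = 0.0967) did not. In limma on log2(TPM + 1) Sparc and Cdh11 kept theirs, while Fbln1 (adjusted p = 0.0905) and Fn1 (adjusted p = 0.142) did not, and with length-scaled counts only Fn1 of the 4 lost its call (edgeR adjusted p = 0.0619).

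Cdh11 had 191, 190, 207 and 197 CPM in cKO right ventricles, 174, 179 and 161 CPM in right ventricle controls 1, 3 and 4, and 187 CPM in control 2. The groups did not overlap, and the log2 fold change was 0.16 ± 0.045 (SE), edgeR adjusted p = 0.0267 with all controls and 0.20 ± 0.044 (SE), edgeR adjusted p = 0.00582 without control 2. The call with all controls was lost when cKO library 3 or 4 or control 1 or 4 was left out, with adjusted p values of 0.091, 0.0605, 0.0633 and 0.0862. Fn1 had 1915, 2034, 2025 and 2075 CPM in cKO right ventricles, 1717, 1763 and 1723 CPM in right ventricle controls 1, 3 and 4, and 1940 CPM in control 2, so that control 2 lay within the cKO range. The log2 fold change was 0.17 ± 0.044 (SE), edgeR adjusted p = 0.0176 with all controls, where leaving out cKO library 4 or control 1 or 4 raised the adjusted p to 0.0543, 0.0552 and 0.0584, and 0.21 ± 0.037 (SE), edgeR adjusted p = 0.000841 without control 2.

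Bgn, Fbn1 and Thbs1 were called higher only when control 2 was left out. Bgn had 187, 205, 207 and 217 CPM in cKO right ventricles, 157, 173 and 161 CPM in right ventricle controls 1, 3 and 4, and 312 CPM in control 2. The log2 fold change was 0.019 with all controls and 0.31 ± 0.081 (SE), edgeR adjusted p = 0.0142 without control 2. Thbs1 had 74.6, 88.6, 79.9 and 101 CPM in cKO right ventricles, 55.1, 56.2 and 66.5 CPM in right ventricle controls 1, 3 and 4, and 425 CPM in control 2, with -0.81 with all controls and 0.54 ± 0.11 (SE), edgeR adjusted p = 0.00267 without control 2. Fbn1 had 281, 283, 268 and 295 CPM in cKO right ventricles, 251, 253 and 238 CPM in controls 1, 3 and 4 and 408 CPM in control 2, with -0.029 with all controls and 0.19 ± 0.041 (SE), edgeR adjusted p = 0.00503 without control 2.

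Vcan was the 1 gene called lower with all controls, and the call ended without control 2. Vcan had 519, 567, 499 and 506 CPM in cKO right ventricles, 617, 646 and 535 CPM in right ventricle controls 1, 3 and 4, and 921 CPM in control 2. The log2 fold change was -0.38 ± 0.12 (SE), edgeR adjusted p = 0.0452 with all controls and -0.20 ± 0.066 (SE), edgeR adjusted p = 0.0547 without control 2, and cKO library 2 lay within the range of the controls in both cases. Leaving out any of 13 of the 16 ventricle libraries, 1 at a time, took its adjusted p above 0.05, to between 0.0524 and 0.108, and the exceptions were left ventricle control 3 and right ventricle controls 1 and 4. With all libraries the call was also lost with library totals, voom, length-scaled counts, limma on log2(TPM + 1) and only the right ventricle libraries, where the log2 fold change was -0.17 to -0.39 and the adjusted p 0.0544 to 0.59. Its long transcripts were at 61.5, 65.3, 54.9 and 59.7 TPM in cKO right ventricles, at 70.8, 74.3 and 63.7 TPM in controls 1, 3 and 4 and at 113 TPM in control 2. Acan had 2.98, 3.3, 3.12 and 2.72 CPM in cKO right ventricles, 2.83, 2.8 and 2.6 CPM in right ventricle controls 1, 3 and 4, and 5.16 CPM in control 2, and was not called in either fit, with -0.15 ± 0.29 (SE), edgeR adjusted p = 0.82 with all controls and 0.14 ± 0.28 (SE), edgeR adjusted p = 0.814 without control 2.

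The transcription factors showed how far 1 library carried the result. Meox1 had 4.66, 7.4, 4.59 and 7.47 CPM in cKO right ventricles, 4.11, 3.27 and 4.14 CPM in controls 1, 3 and 4 and 53.1 CPM in control 2. Its log2 fold change was -1.43 ± 0.70 (SE), edgeR adjusted p = 0.232 with all controls and 0.65 ± 0.27 (SE), edgeR adjusted p = 0.135 without control 2. Of the 9 factors 8 had a negative fold change with all controls and 8 a positive one without control 2, and edgeR called none of them in either fit. Among all genes tested, 48.5% had a positive fold change with all controls and 50.9% without control 2. Among the cKO right ventricles, library 2 was high for several of these genes, with Twist1 at 5.12 CPM against 2.35 to 2.72 CPM and Hapln1 at 49.3 CPM against 17.9 to 20.3 CPM in the other 3.

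Postn had 112, 223, 100 and 145 CPM in cKO right ventricles, 104, 119 and 105 CPM in right ventricle controls 1, 3 and 4, and 576 CPM in control 2, a log2 fold change of -0.64 ± 0.46 (SE), edgeR adjusted p = 0.451 with all controls and 0.41 ± 0.25 (SE), edgeR adjusted p = 0.337 without control 2. Has2 had 1.2, 3.7, 0.471 and 2.35 CPM in cKO right ventricles, 1.17, 1.03 and 1.38 CPM in right ventricle controls 1, 3 and 4, and 17.5 CPM in control 2, with -1.46 ± 0.78 (SE), edgeR adjusted p = 0.286 with all controls and 0.70 ± 0.51 (SE), edgeR adjusted p = 0.425 without control 2. Cthrc1 had 0.816, 2.28, 1.24 and 2.4 CPM in cKO right ventricles, 0.722, 0.374 and 0.939 CPM in right ventricle controls 1, 3 and 4, and 31.7 CPM in control 2, with -2.33 ± 1.0 (SE), edgeR adjusted p = 0.168 with all controls and 1.32 ± 0.51 (SE), edgeR adjusted p = 0.101 without control 2. In all 3 the cKO libraries spread widely and overlapped controls 1, 3 and 4, and control 2 lay above every other right ventricle library.

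Beside these values, endothelial markers were called higher for 3 of 12 and lower for 1, epicardial markers higher for 1 of 10, and cardiomyocyte markers for none of 10 by edgeR with all controls. Among all genes 10.3% were called with all controls and 14.5% without control 2. Marker counts with all controls are not to be set beside calls made without control 2. Of 12 atrial cardiomyocyte markers 8 were called higher with all controls and 7 without control 2, with sums of 5926 to 6196 TPM in cKO and 4246 to 4568 TPM in control right ventricles, and of 10 smooth muscle and pericyte markers 3 were called higher and 2 lower with all controls. Of 10 erythroid markers 5 were called higher with all controls and 1 without control 2. The sum of the erythroid markers was 32122 to 61348 TPM in cKO and 13830 to 32910 TPM in control right ventricles. The part of these cells in the results was not tested.

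**Figure D4:**
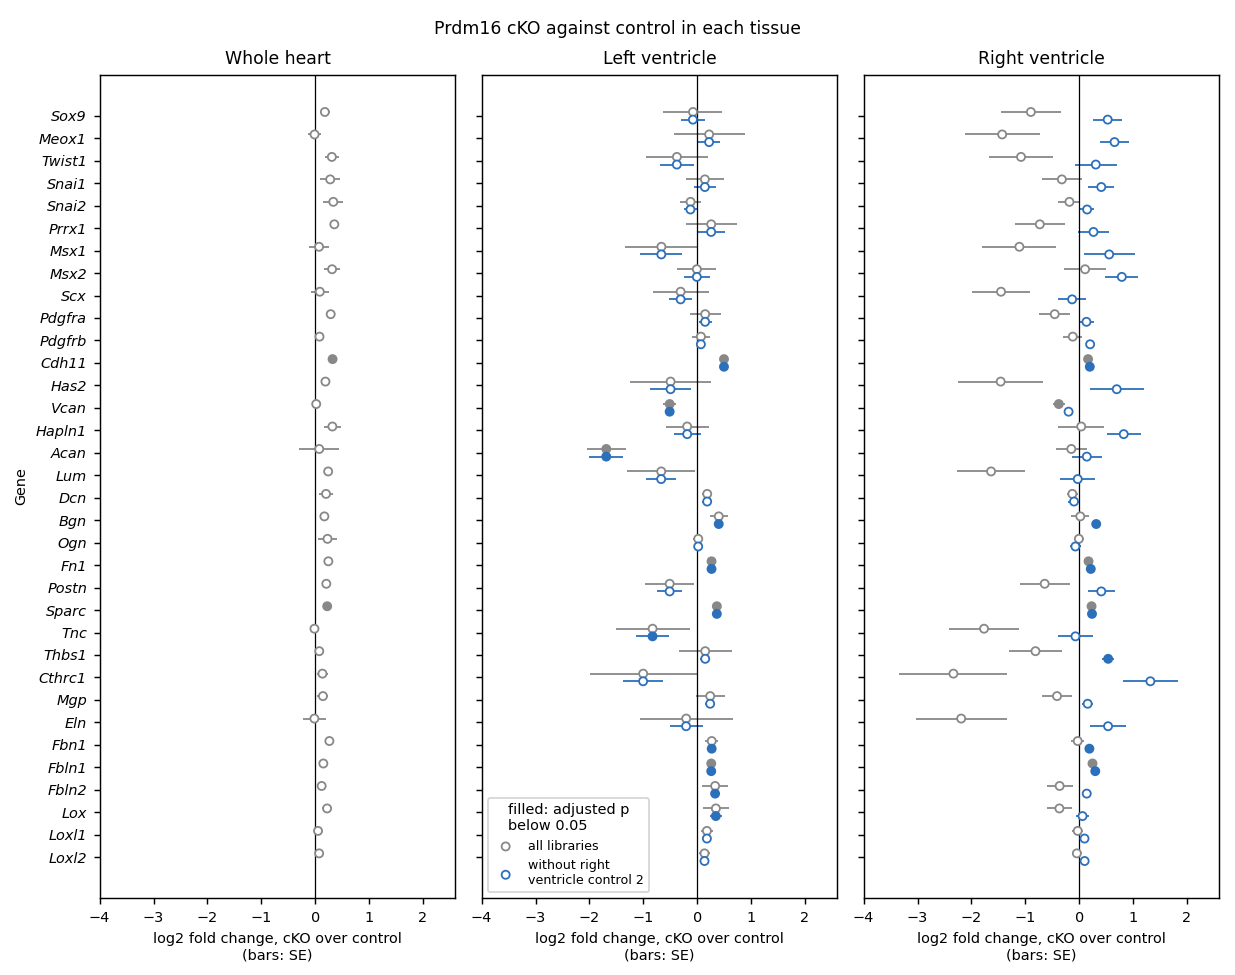
The log2 fold change of each of the 34 genes, cKO over control, in whole heart, left ventricle and right ventricle, with bars for the SE and filled points for an adjusted p below 0.05. Grey points use all libraries and blue points leave out right ventricle control 2. In the right ventricle panel the grey points of genes such as Cthrc1, Eln and Tnc lie far left of the blue ones, while Cdh11, Sparc, Fbln1 and Fn1 stay right of 0 on both.

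The cKO effect of the left ventricle minus that of the right was tested as an interaction in the same model. With all libraries Cdh11 was the 1 gene of the 34 with a call, against 1.43% of all genes called, 0.462% with a positive and 0.973% with a negative difference, and the median difference was 0.41 on the log2 scale for the 34 genes and -0.00068 for all genes. Cdh11 rose by 0.50 in the left and 0.16 in the right ventricle, a difference of 0.33 ± 0.063 (SE), edgeR adjusted p = 0.0138 with all libraries and 0.30 ± 0.059 (SE), edgeR adjusted p = 0.0129 without right ventricle control 2. The call was lost with length-scaled counts, where the difference was 0.16, and in limma on log2(TPM + 1), where it was 0.23.

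Without control 2, Acan joined it, with a difference of -1.83 ± 0.43 (SE), edgeR adjusted p = 0.0349, against 2.15% of all genes called, 0.733% with a positive and 1.42% with a negative difference. With all libraries its difference was -1.54 ± 0.47 (SE), edgeR adjusted p = 0.121. Its lowest values were those of the cKO left ventricles, at 4 to 17 reads per library. The Acan call was also lost with length-scaled counts and in limma on log2(TPM + 1), both without control 2. Without control 2 the median difference of the 34 genes was -0.22, against -0.0069 for all genes, and the sign of the difference turned for 17 of the 34, against 11.4% of the genes tested in both fits. Sparc, Fbln1 and Fn1 were higher in the cKO in both ventricles, with differences of 0.13 ± 0.043 (SE), edgeR adjusted p = 0.171, -0.038 ± 0.063 (SE), edgeR adjusted p = 0.881 and 0.051 ± 0.05 (SE), edgeR adjusted p = 0.749, all without control 2. With all libraries these differences were 0.14, 0.014 and 0.093, with edgeR adjusted p values of 0.167, 0.968 and 0.554.

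In the whole heart 2 of the 34 genes rose in the cKO and none fell, against 4.03% of all 19160 genes called, 1.96% higher and 2.07% lower. The log2 fold change was positive for 31 of the 34 and for 53.0% of all genes, with a median of 0.18 against 0.015 for all genes, and 11 of the 34 had an unadjusted p below 0.05, as had 17.2% of all genes. Without control 1, 6 rose and none fell, against 6.54% of all genes called, 3.28% higher and 3.25% lower, with a median of 0.21 against 0.0062.

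Cdh11 had 324, 280 and 280 CPM in cKO whole hearts and 241, 241 and 225 CPM in control whole hearts, with no overlap and a log2 fold change of 0.32 ± 0.067 (SE), edgeR adjusted p = 0.0418. Sparc had 1382, 1472 and 1459 CPM in cKO whole hearts and 1277, 1217 and 1205 CPM in control whole hearts, again with no overlap, at 0.22 ± 0.042 (SE), edgeR adjusted p = 0.0299. Both calls were lost when any of the 3 cKO libraries or control 2 or 3 was left out, with adjusted p values of 0.0621 to 0.159 for Cdh11 and 0.0515 to 0.151 for Sparc, and both were kept without control 1. Both were also lost with length-scaled counts, with edgeR adjusted p values of 0.185 for Cdh11 and 0.132 for Sparc, and in limma on log2(TPM + 1), with 0.218 and 0.153.

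Bgn, Fbn1, Lox and Prrx1 were called only without control 1. Bgn had 310, 324 and 338 CPM in cKO whole hearts and 308, 278 and 279 CPM in control whole hearts, a log2 fold change of 0.22 ± 0.05 (SE), edgeR adjusted p = 0.0428 without control 1. Fbn1 had 648, 552 and 557 CPM in cKO whole hearts and 536, 455 and 473 CPM in control whole hearts, with 0.33 ± 0.074 (SE), edgeR adjusted p = 0.0363 on the same basis. Lox had 87.3, 80.1 and 86.8 CPM in cKO whole hearts and 81.2, 72.9 and 64.3 CPM in control whole hearts, with 0.30 ± 0.068 (SE), edgeR adjusted p = 0.0373. Prrx1, a homeobox factor of limb and cardiac mesenchyme, had 37.8, 35.5 and 35.2 CPM in cKO whole hearts and 27.7, 31.3 and 25.9 CPM in control whole hearts, with 0.34 ± 0.081 (SE), edgeR adjusted p = 0.0488. In these 4 genes the cKO values lay above the values of controls 2 and 3. With all libraries their adjusted p values were 0.172 for Bgn, 0.146 for Fbn1, 0.245 for Lox and 0.0509 for Prrx1.

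The cushion matrix genes Has2, Vcan and Postn were not called in the whole heart. Has2 had 23.5, 20.4 and 19.8 CPM in cKO whole hearts and 18.6, 18.2 and 19.1 CPM in control whole hearts, a log2 fold change of 0.19 ± 0.082 (SE), edgeR adjusted p = 0.295. Vcan had 1314, 1167 and 1118 CPM in cKO whole hearts and 1107, 1168 and 1280 CPM in control whole hearts, with 0.018 ± 0.074 (SE), edgeR adjusted p = 0.93. Postn had 778, 837 and 757 CPM in cKO whole hearts and 634, 743 and 680 CPM in control whole hearts, with 0.21 ± 0.066 (SE), edgeR adjusted p = 0.156.

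The fall of Vcan and Acan in the left ventricle had no counterpart that passed the test in the whole heart. Acan had 7.16, 4.11 and 7.34 CPM in cKO whole hearts and 9.5, 3.71 and 4.55 CPM in control whole hearts, with 0.074 ± 0.37 (SE), edgeR adjusted p = 0.944. Sox9 had 42.2, 34.9 and 34.9 CPM in cKO whole hearts and 34.5, 30.8 and 33.7 CPM in control whole hearts, with 0.18 ± 0.088 (SE), edgeR adjusted p = 0.36, and Twist1 had 23.3, 17.9 and 18.6 CPM in cKO whole hearts and 14.1, 15.9 and 18.3 CPM in control whole hearts, with 0.31 ± 0.13 (SE), edgeR adjusted p = 0.288.

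Beside these values, 4 of 10 cardiomyocyte markers were called lower in cKO whole hearts, with sums of 18743 to 20118 TPM in cKO and 20303 to 22161 TPM in control whole hearts. Among all genes 1.96% were called higher and 2.07% lower with all libraries. Of 12 atrial cardiomyocyte markers 7 were called higher, with sums of 4936 to 5037 TPM in cKO and 3437 to 3889 TPM in controls. Of 12 endothelial and endocardial markers 2 were called higher, and of 10 smooth muscle and pericyte markers 2 higher and 1 lower. The part of these cells in the rises of Cdh11 and Sparc was not tested.

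Between the ventricles of control hearts, the result again rested on control 2 of the right ventricle. With all libraries 3 of the 34 genes were higher in the left ventricle and 1 lower, against 21.0% of all genes called, 9.02% higher and 12.0% lower. The median log2 ratio, left over right, was -0.091 for the 34 genes and 0.0042 for all genes. Without control 2, 21 were higher in the left ventricle and 1 lower, against 26.9% of all genes called, 12.2% higher and 14.8% lower. The median was then 0.54 for the 34 genes and 0.011 for all genes, and 16 of the 34 had changed sign, against 9.17% of the genes tested in both fits. The control left ventricles here are those of the left ventricle cKO comparison and the control right ventricles those of the right, so the values are to be read side by side. Control 2 is high in these same genes, so leaving it out raises most of the ratios. The calls without it depend on that choice.

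Fbln1, Vcan, Fn1 and Cdh11 were called with and without that library. Fbln1 had 173, 163, 173 and 170 CPM in control left ventricles, 94.5, 81.8 and 89.3 CPM in right ventricle controls 1, 3 and 4, and 101 CPM in control 2, a log2 ratio of 0.89 ± 0.053 (SE), edgeR adjusted p = 1.35e-08 with all libraries and 0.94 ± 0.047 (SE), edgeR adjusted p = 2.04e-09 without control 2. Vcan had 457, 450, 513 and 431 CPM in control left ventricles, 617, 646 and 535 CPM in right ventricle controls 1, 3 and 4, and 921 CPM in control 2, a log2 ratio of -0.55 ± 0.12 (SE), edgeR adjusted p = 0.0026 with all libraries and -0.37 ± 0.066 (SE), edgeR adjusted p = 0.000511 without control 2. Every control left ventricle was above every control right ventricle for Fbln1 and below every one for Vcan.

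Fn1 had 1871, 1998, 1972 and 2044 CPM in control left ventricles, 1717, 1763 and 1723 CPM in right ventricle controls 1, 3 and 4, and 1940 CPM in control 2, with 0.14 ± 0.044 (SE), edgeR adjusted p = 0.0289 with all libraries and 0.18 ± 0.037 (SE), edgeR adjusted p = 0.00144 without control 2. Cdh11 had 205, 198, 186 and 188 CPM in control left ventricles, 174, 179 and 161 CPM in right ventricle controls 1, 3 and 4, and 187 CPM in control 2, with 0.15 ± 0.045 (SE), edgeR adjusted p = 0.028 with all libraries and 0.18 ± 0.044 (SE), edgeR adjusted p = 0.00593 without control 2. With all libraries, the Cdh11 call was lost when left ventricle control 1 or 2 or right ventricle control 1 or 4 was left out, and the Fn1 call without left ventricle control 2, 3 or 4 or right ventricle control 1, 3 or 4. Both calls were lost with no filter on low counts and with only the control libraries, where the edgeR adjusted p was 0.0663 and 0.0879 for Cdh11 and 0.0864 and 0.101 for Fn1, and that of Cdh11 also with length-scaled counts and in limma on log2(TPM + 1).

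Of the 9 transcription factors 8 were called higher in the left ventricle when control 2 was left out, all but Prrx1, and none with it. Meox1 had 11.3, 6.9, 16.7 and 13.2 CPM in control left ventricles, 4.11, 3.27 and 4.14 CPM in right ventricle controls 1, 3 and 4, and 53.1 CPM in control 2, a log2 ratio of 1.65 ± 0.26 (SE), edgeR adjusted p = 0.000207 without control 2. Sox9 had 8.69, 7.85, 13.9 and 11.7 CPM in control left ventricles, 4.5, 4.49 and 5.64 CPM in right ventricle controls 1, 3 and 4, and 37.4 CPM in control 2, with 1.12 ± 0.26 (SE), edgeR adjusted p = 0.00422 without control 2. Snai1 had 4.04, 4.11, 4.91 and 6.43 CPM in control left ventricles, 2.5, 1.36 and 3.32 CPM in right ventricle controls 1, 3 and 4, and 8.53 CPM in control 2, with 1.04 ± 0.24 (SE), edgeR adjusted p = 0.0035 without control 2. For these 3 genes control left ventricles lay above right ventricle controls 1, 3 and 4, and control 2 lay above every control left ventricle. Control 2 included, log2 ratios were -0.43 for Meox1, -0.30 for Sox9 and 0.31 for Snai1, with edgeR adjusted p values of 0.6 to 0.742.

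Msx2 had 5.27, 4.3, 5.77 and 4.31 CPM in control left ventricles, 1.28, 1.92 and 1.49 CPM in right ventricle controls 1, 3 and 4, and 5.36 CPM in control 2, a log2 ratio of 1.64 ± 0.30 (SE), edgeR adjusted p = 0.000659 without control 2. Msx1 had 2.53, 1.65, 4.05 and 2.29 CPM in control left ventricles, 0.833, 0.981 and 0.995 CPM in right ventricle controls 1, 3 and 4, and 9.08 CPM in control 2, with 1.49 ± 0.45 (SE), edgeR adjusted p = 0.0219 without control 2. Scx had 2.19, 1.94, 2.84 and 2.76 CPM in control left ventricles, 0.944, 1.03 and 1.55 CPM in right ventricle controls 1, 3 and 4, and 8.13 CPM in control 2, with 1.06 ± 0.24 (SE), edgeR adjusted p = 0.00345 without control 2. These also separated completely once control 2 was set aside. Snai2 had 8.48, 9.31, 12.3 and 9.78 CPM in control left ventricles, 7.1, 6.82 and 6.46 CPM in right ventricle controls 1, 3 and 4, and 13.7 CPM in control 2, with 0.56 ± 0.13 (SE), edgeR adjusted p = 0.00513 without control 2. Twist1 had 6.23, 2.6, 10.2 and 6.54 CPM in control left ventricles, 2.78, 1.87 and 3.15 CPM in right ventricle controls 1, 3 and 4, and 19.1 CPM in control 2, with 1.31 ± 0.37 (SE), edgeR adjusted p = 0.015 without control 2, and only Twist1 overlapped. The log2 ratios with control 2 included were 0.96 for Msx2, -0.18 for Msx1, -0.26 for Scx, 0.23 for Snai2 and -0.077 for Twist1, with edgeR adjusted p values of 0.083 to 0.948.

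Pdgfra, Has2 and Hapln1 were arranged in the same way. Pdgfra had 75, 66.6, 93.8 and 86.6 CPM in control left ventricles, 50.1, 41.5 and 50.1 CPM in right ventricle controls 1, 3 and 4, and 142 CPM in control 2, a log2 ratio of 0.77 ± 0.14 (SE), edgeR adjusted p = 0.000587 without control 2. Has2 had 4.99, 2.79, 5.73 and 6.64 CPM in control left ventricles, 1.17, 1.03 and 1.38 CPM in right ventricle controls 1, 3 and 4, and 17.5 CPM in control 2, with 2.08 ± 0.48 (SE), edgeR adjusted p = 0.00386 without control 2. Hapln1 had 51.2, 34.5, 52.3 and 44.2 CPM in control left ventricles, 16.3, 17.1 and 11.5 CPM in right ventricle controls 1, 3 and 4, and 58.4 CPM in control 2, with 1.60 ± 0.31 (SE), edgeR adjusted p = 0.00101 without control 2. Every control left ventricle was above right ventricle controls 1, 3 and 4 for these 3 genes. With control 2 in the fit their log2 ratios were 0.18 for Pdgfra, -0.075 for Has2 and 0.81 for Hapln1, with edgeR adjusted p values of 0.179 to 0.961. Hapln1 and Vcan, which lie 43660 bp apart on chromosome 13 with 0 protein-coding genes between them, stood on opposite sides without control 2.

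Among the secreted proteins Cthrc1 differed most. Cthrc1 had 4.93, 2.6, 5.25 and 5.32 CPM in control left ventricles, 0.722, 0.374 and 0.939 CPM in right ventricle controls 1, 3 and 4, and 31.7 CPM in control 2, a log2 ratio of 2.75 ± 0.48 (SE), edgeR adjusted p = 0.000494 without control 2. Postn had 250, 179, 352 and 283 CPM in control left ventricles, 104, 119 and 105 CPM in right ventricle controls 1, 3 and 4, and 576 CPM in control 2, with 1.28 ± 0.26 (SE), edgeR adjusted p = 0.00134 without control 2. Thbs1 had 107, 84.7, 107 and 117 CPM in control left ventricles, 55.1, 56.2 and 66.5 CPM in right ventricle controls 1, 3 and 4, and 425 CPM in control 2, with 0.81 ± 0.11 (SE), edgeR adjusted p = 4.17e-05 without control 2. Control 2 was above every left ventricle for all 3. Mgp had 31.4, 32.8, 36.2 and 42.8 CPM in control left ventricles, 25.8, 26.7 and 25.4 CPM in right ventricle controls 1, 3 and 4, and 75.9 CPM in control 2, with 0.46 ± 0.1 (SE), edgeR adjusted p = 0.00235 without control 2, and Lum had 15.4, 11.9, 33.5 and 24.6 CPM in control left ventricles, 10.7, 9.25 and 12.2 CPM in right ventricle controls 1, 3 and 4, and 97.6 CPM in control 2, with 1.01 ± 0.31 (SE), edgeR adjusted p = 0.0233 without control 2, where the groups of Lum overlapped. Log2 ratios with control 2 were -0.91 for Cthrc1, 0.23 for Postn, -0.54 for Thbs1, -0.10 for Mgp and -0.60 for Lum, with edgeR adjusted p values of 0.481 to 0.833.

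Tnc, not called in this comparison, had 29.6, 19.3, 39.2 and 46.4 CPM in control left ventricles, 21, 24.1 and 24.1 CPM in right ventricle controls 1, 3 and 4, and 229 CPM in control 2. Acan, likewise not called, had its control left ventricle values below those of right ventricle controls 1, 3 and 4, with a log2 ratio of -0.80 ± 0.30 (SE), edgeR adjusted p = 0.0688 with all libraries and -0.52 ± 0.29 (SE), edgeR adjusted p = 0.203 without control 2. Cardiomyocyte markers were lower in the left ventricle for 8 of 10 without control 2, with sums of 24921 to 26780 TPM in left ventricle controls and 29421 to 30017 TPM in right ventricle controls 1, 3 and 4. Cartilage markers were higher for 6 of 10 and lower for 1, although 9 passed the filter, and smooth muscle markers lower for 5 of 10. Atrial cardiomyocyte markers were higher for 7 of 12 and lower for 2, beside 12.2% and 14.8% of all genes without control 2. The part of these cells in the ratios was not tested.

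Left and right ventricles of the cKO do not involve control 2 except through the shared filter, scaling and estimate of the spread. With all libraries 6 of the 34 genes were higher in the left ventricle and 2 lower, against 32.8% of all genes called, 14.5% higher and 18.3% lower, and the median log2 ratio was 0.37 for the 34 genes and 0.017 for all genes. Without control 2, 18 were higher and 2 lower, against 36.1% of all genes called, 16.7% higher and 19.4% lower. The control and cKO comparisons of ventricles use different libraries.

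Fbln1 had the most significant ratio, 0.90 ± 0.052 (SE), edgeR adjusted p = 4.68e-09, and its cKO left ventricle values, 198 to 210 CPM, lay far above the cKO right ventricle values, 103 to 114 CPM. Cdh11 was at 0.48 ± 0.045 (SE), edgeR adjusted p = 9.37e-07, Sparc at 0.16 ± 0.032 (SE), edgeR adjusted p = 0.000899 and Fn1 at 0.24 ± 0.044 (SE), edgeR adjusted p = 0.000618, without overlap. Vcan was at -0.69 ± 0.12 (SE), edgeR adjusted p = 0.000262, and Acan at -2.34 ± 0.35 (SE), edgeR adjusted p = 8.93e-05, both lower in every cKO left ventricle library than in every cKO right ventricle library.

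Dcn had 94.8, 111, 106 and 119 CPM in cKO left ventricles and 64.9, 75.5, 89.6 and 88.8 CPM in cKO right ventricles, a log2 ratio of 0.43 ± 0.096 (SE), edgeR adjusted p = 0.00238. Dcn lies 46985 bp from Lum on chromosome 10. Lum had 13.1, 11.7, 9.9 and 19.4 CPM in cKO left ventricles and 7.3, 12.1, 8.77 and 13.8 CPM in cKO right ventricles, with 0.37 ± 0.67 (SE), edgeR adjusted p = 0.713 with all libraries and 0.37 ± 0.30 (SE), edgeR adjusted p = 0.363 without control 2. Pdgfra had 86.7, 88.2, 77.2 and 105 CPM in cKO left ventricles and 46.9, 58.9, 41.4 and 59.8 CPM in cKO right ventricles, with 0.79 ± 0.29 (SE), edgeR adjusted p = 0.0474 with all libraries and 0.79 ± 0.13 (SE), edgeR adjusted p = 0.000131 without control 2. Dcn and Pdgfra separated completely and Lum overlapped. The Pdgfra call with all libraries was lost when any 1 of the 12 ventricle libraries other than the right ventricle controls was left out, with adjusted p values of 0.0544 to 0.124, and with DESeq2 (adjusted p = 0.0537) and length-scaled counts (edgeR adjusted p = 0.0718).

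Of the genes called only without control 2, Meox1 had the largest ratio. Meox1 had 14.1, 13.3, 12 and 16.7 CPM in cKO left ventricles and 4.66, 7.4, 4.59 and 7.47 CPM in cKO right ventricles, a log2 ratio of 1.22 ± 0.22 (SE), edgeR adjusted p = 0.000435 without control 2. Mgp had 42.1, 38.6, 41.5 and 47.3 CPM in cKO left ventricles and 25.2, 29, 29.2 and 32.6 CPM in cKO right ventricles, with 0.55 ± 0.09 (SE), edgeR adjusted p = 0.00017 without control 2. Scx had 2.07, 1.75, 1.59 and 2.46 CPM in cKO left ventricles and 0.768, 1.25, 1.12 and 1.15 CPM in cKO right ventricles, with 0.88 ± 0.23 (SE), edgeR adjusted p = 0.00586 without control 2. Their adjusted p values with all libraries were 0.204 for Meox1, 0.139 for Mgp and 0.254 for Scx. None of these overlapped, and the others of the 12 genes called only there were Snai1, Msx2, Pdgfrb, Bgn, Thbs1, Fbn1, Fbln2, Lox and Loxl1. Beside these values, epicardial markers were called higher for 6 of 10 and endothelial markers for 6 of 12 in the cKO left ventricle, and cardiomyocyte markers lower for 8 of 10. Atrial cardiomyocyte markers were called higher for 4 of 12 and lower for 3, all these counts being with all libraries, where 14.5% of all genes were called higher and 18.3% lower. Their part in the ratios was not tested.

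Ogn, Eln and Loxl2 were the 3 genes of the 34 called in none of the 6 comparisons, with or without right ventricle control 2 or whole heart control 1. Eln had 44.9, 36.4, 29.3 and 42.7 CPM in cKO left ventricles and 35.2, 33.1, 51.9 and 56.2 CPM in control left ventricles. It had 26.2, 40.6, 25.8 and 83.4 CPM in cKO right ventricles, 23.3, 31.7 and 36.2 CPM in right ventricle controls 1, 3 and 4, and 712 CPM in control 2. Without those 2 libraries the log2 differences of the 6 comparisons ran from -0.74 to 0.54 for Eln, from -0.071 to 0.21 for Ogn and from -0.04 to 0.13 for Loxl2.

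Isoform shares were read from the transcript rows. Postn-203, a transcript of 3205 bases, held 49.8 ± 11.2% of the TPM of Postn in cKO left ventricles and 35.7 ± 7.29% in control left ventricles (SD, n = 4 each). Postn-204, of 3121 bases, held 10.7 ± 13.9% in cKO and 27.7 ± 9.12% in control left ventricles, and its spread in cKO was larger than its mean. Fn1-201, the transcript of 8315 bases, held 32.5 ± 0.767% in cKO and 31.8 ± 1.09% in control left ventricles. Tnc-201, of 6833 bases, held 0% in all 4 cKO left ventricles and 24.2 ± 20.4% in control left ventricles. These shares are descriptions with no test.

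Some of the genes share ground with others. Scx overlaps Bop1 on the opposite strand, which averaged 16.2 TPM against 2.79 TPM for Scx, and Ogn overlaps Cenpp on the opposite strand, at 16 TPM against 14.8 TPM. The kit is stranded per the labels but the strand setting of the counting is not given in the sources used here, so Scx and Ogn values are less certain than the rest.

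Single libraries were high or low for many of the 34 genes. In cKO left ventricles library 4 was the highest for 21 genes and library 3 the lowest for 23, and in control left ventricles library 3 was the highest for 21 and library 2 the lowest for 23. The median coefficient of variation of CPM was 11.1% in cKO left ventricles, 14.9% in control left ventricles and 15.6% in cKO right ventricles. It was 65.9% in control right ventricles and 9.19% there without control 2, and 8.53% in cKO and 8.72% in control whole hearts. RNA integrity numbers ran from 6.1 to 10 per the labels.

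Of 28 other genes that signal to or specify cushion and mesenchymal cells, 9 were called higher and 2 lower in the left ventricle cKO, where 12.3% of all genes were higher and 13.4% lower, with a median log2 fold change of 0.10. Eng, the endothelial co-receptor endoglin, was at 0.37 (adjusted p = 1.15e-05), Prrx2, a relative of Prrx1, at 0.55 (adjusted p = 0.000232), the Notch ligand Jag1 at -0.45 (adjusted p = 0.00017) and the growth factor Vegfa at -0.36 (adjusted p = 0.00064), all by edgeR. In the right ventricle 2 were higher and 2 lower, against 6.12% and 4.19% of all genes, with Eng at 0.27 (adjusted p = 0.000725), Prrx2 at 0.48 (adjusted p = 0.00117), Vegfa at -0.32 (adjusted p = 0.00431) and the bone morphogenetic protein receptor Bmpr1a at -0.16 (adjusted p = 0.0046). The interaction, called for 1.43% of all genes, was called for Jag1 at -0.45 (adjusted p = 0.0295) and for Bmpr1a at 0.20 (adjusted p = 0.0466).

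Without right ventricle control 2 the counts of these 28 were 12 higher and 3 lower in the left ventricle, against 14.0% and 15.2% of all genes, and 7 higher and 2 lower in the right, against 7.41% and 7.12%. In the whole heart 3 were higher and 1 lower, against 1.96% and 2.07% of all genes, with the ligands Bmp2 at 0.38 (adjusted p = 0.0457) and Tgfb2 at 0.22 (adjusted p = 0.0478), the factor Tbx3 at 0.36 (adjusted p = 0.0467) and Vegfa at -0.36 (adjusted p = 0.0102). Left over right in controls, 2 were higher and 2 lower with all libraries, where 21.0% of all genes were called in either direction, and 9 higher and 2 lower without control 2, where 26.9% were. In the cKO 6 were higher and 4 lower with all libraries, where 32.8% of all genes were called, and 11 higher and 4 lower without control 2, where 36.1% were. Prrx2 was lower in the left ventricle in both genotypes, at -0.57 (adjusted p = 8.12e-05) in the cKO and -0.64 (adjusted p = 0.000102) in controls.

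Of 39 other matrix genes of mesenchyme, 38 passed the filter in the ventricles and 39 in whole hearts. In the left ventricle 8 of the 38 were higher and 1 lower in the cKO. The share called in either direction was near the 25.6% of all genes. By direction, the share higher was above the 12.3% of all genes and the share lower was below the 13.4%. Among the matrix genes called were Nid2, the basement membrane protein nidogen 2, at 0.32 (adjusted p = 4.15e-06), the protease inhibitor Timp2 at 0.29 (adjusted p = 0.00167) and the hyaluronan receptor Hmmr at -0.27 (adjusted p = 0.00317). In the right ventricle 1 was higher, Nid2 at 0.29 (adjusted p = 3.55e-05), and 2 lower, Aspn and Timp3, against 6.12% and 4.19% of all genes. Without control 2 the counts were 16 higher and 1 lower in the left ventricle, against 14.0% and 15.2% of all genes, and 8 higher and 1 lower in the right, against 7.41% and 7.12%, out of 39.

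In the whole heart edgeR called none of these 39, and 15 had an unadjusted p below 0.05, as had 17.2% of all genes. Without control 1, 4 were higher and 1 lower, against 3.28% and 3.25% of all genes. The interaction was called for none with all libraries, where 7 had an unadjusted p below 0.05, as had 13.6% of all genes, and without control 2 for Fmod, the proteoglycan fibromodulin, at 0.44 (adjusted p = 0.014). Left over right in controls, 3 were higher and 7 lower with all libraries and 17 higher and 5 lower without control 2, beside the 21.0% and 26.9% of all genes called. In the cKO 13 were higher and 2 lower with all libraries and 17 higher and 4 lower without control 2, beside the 32.8% and 36.1% of all genes called. Nid2 was lower in the left ventricle in both genotypes, at -0.44 (adjusted p = 1.65e-07) in the cKO and -0.47 (adjusted p = 1.48e-07) in controls.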

How the data were processed

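Bulk RNA-seq of 22 libraries was quantified by the authors with Salmon 1.2.1 on GRCm38.p6 (mm10), with DESeq2 1.22.2 also listed, per the submitters' processing notes. The deposited transcript tables give estimated counts, which need not be whole, and TPM as the authors' Salmon runs wrote them. Transcripts were summed to GENCODE M21 genes and the estimated counts rounded. Tests were edgeR 4.0.16 quasi-likelihood F tests (R 4.3.3) with TMM, its filter on low counts and Benjamini-Hochberg adjustment over all genes, called at 0.05, with whole hearts fitted alone and the 16 ventricle libraries in 1 model of 4 groups. SE were taken as the size of the log2 fold change divided by the square root of its F. CPM use TMM-scaled library sizes. DESeq2 1.42.0 and limma 3.58.1 on log2(TPM + 1) were alternatives. The edgeR fits were tested on simulated data with changes set in whole heart cKO or left ventricle cKO and with no outlying library. The other comparisons were not simulated. Figures used Python 3.11.15, pandas 2.3.3 and matplotlib 3.10.9.

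The 34 genes and all other lists were chosen with earlier results of these data known. Values in every library are given for genes with an adjusted p below 0.05 and an absolute log2 fold change of at least 0.5 in any comparison, and for Postn and Meox1. Those of Cdh11, Sparc, Bgn, Fn1, Dcn, Fbn1, Lox, Prrx1 and Eln were added after their values were seen. Of other lists up to 4 genes with the smallest p are named. No 2 libraries held identical values. Promoters are RefSeq sequences on GRCm38.p6. Settings were varied as the closing section gives.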

Additional observations from a re-analysis of the deposited data

Results flagged for a closer look

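In each group of 4 libraries, a gene's highest or lowest library was marked where its gap to the nearest of the others divided by the group's range passed Dixon's critical value for 4 libraries. That marked 29 of 136 gene and group combinations, 24 of them in right ventricle control 2. That library was known to be rich in these genes when they were chosen, so its marks restate this and are not independent evidence. Chance marks about 1 in 20 of independent groups, and genes of 1 library are not independent. Whole hearts, with 3 libraries a group, were not tested in this way.

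Right ventricle control 2 stood above the range of controls 1, 3 and 4, in CPM, for Sox9 at 37.4 against 4.49 to 5.64, Meox1 at 53.1 against 3.27 to 4.14, Twist1 at 19.1 against 1.87 to 3.15, Snai2 at 13.7 against 6.46 to 7.1, Prrx1 at 30.6 against 3.55 to 7.66, Msx1 at 9.08 against 0.833 to 0.995, Msx2 at 5.36 against 1.28 to 1.92 and Scx at 8.13 against 0.944 to 1.55. The same held for Pdgfra at 142 against 41.5 to 50.1, Pdgfrb at 80.5 against 39.2 to 42.2, Has2 at 17.5 against 1.03 to 1.38, Hapln1 at 58.4 against 11.5 to 17.1, Acan at 5.16 against 2.6 to 2.83 and Lum at 97.6 against 9.25 to 12.2. It held also for Bgn at 312 against 157 to 173, Postn at 576 against 104 to 119, Tnc at 229 against 21 to 24.1, Thbs1 at 425 against 55.1 to 66.5, Cthrc1 at 31.7 against 0.374 to 0.939 and Mgp at 75.9 against 25.4 to 26.7, and for Eln at 712 against 23.3 to 36.2, Fbn1 at 408 against 238 to 253, Fbln2 at 431 against 156 to 166 and Lox at 58.5 against 22.4 to 26.7. Genes of every role were among them.

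Among cKO right ventricles, library 2 was high for Twist1 at 5.12 CPM against 2.35 to 2.72, Msx1 at 2.79 against 0.765 to 1.04 and Hapln1 at 49.3 against 17.9 to 20.3. Among cKO left ventricles, library 4 was high for Snai2 at 10.2 CPM against 8.78 to 8.9. Among control left ventricles, library 2 was low for Cthrc1 at 2.6 CPM against 4.93 to 5.32.

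The cKO effect differed between the left and right ventricle for Cdh11 by a test of the interaction, by 0.3321 on the log2 scale with all libraries and 0.3001 without right ventricle control 2. For Acan it differed by -1.8284 without that library. These were edgeR calls with adjusted p values of 0.0138, 0.0129 and 0.0349.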

How the results depend on the processing

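The number of the 34 genes called moved by over 1.5 times under some alternatives, with all libraries otherwise. In the whole heart comparison it was 2 as reported, and 4 with no filter on low counts, 8 with DESeq2, 7 with voom with quality weights, 0 (13 at an unadjusted p below 0.05) with length-scaled counts and 0 (15 at an unadjusted p below 0.05) with limma on log2(TPM + 1). In the left ventricle comparison it was 6 as reported, and 12 with only the libraries of that ventricle. In the right ventricle comparison it was 5 as reported, and 3 with length-scaled counts, 2 with limma on log2(TPM + 1) and 1 with only the libraries of that ventricle. In the interaction comparison it was 1 as reported, and 3 with DESeq2, 2 with voom with quality weights, 0 (2 at an unadjusted p below 0.05) with length-scaled counts and 0 (3 at an unadjusted p below 0.05) with limma on log2(TPM + 1). In the left over right in controls comparison it was 4 as reported, and 14 with voom with quality weights and 2 with only the libraries of that genotype. In the left over right in cKO comparison it was 8 as reported, and 16 with voom with quality weights and 20 with only the libraries of that genotype. The causes were not tested.

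Without right ventricle control 2, edgeR as reported gave 11 for left ventricle, 7 for right ventricle and 2 for interaction. It gave 22 for left over right in controls and 20 for left over right in cKO. Crossed with leaving out that library, alternatives chosen after seeing the data gave the counts that follow, to be set beside those. For left ventricle they were 11 with RLE size factors, 11 with library totals, 12 with DESeq2, 12 with voom with quality weights, 8 with length-scaled counts and 8 with limma on log2(TPM + 1). For right ventricle they were 8 with RLE size factors, 7 with library totals, 9 with DESeq2, 7 with voom with quality weights, 8 with length-scaled counts and 7 with limma on log2(TPM + 1). For interaction they were 2 with RLE size factors, 2 with library totals, 5 with DESeq2, 2 with voom with quality weights, 0 (4 at an unadjusted p below 0.05) with length-scaled counts and 0 (3 at an unadjusted p below 0.05) with limma on log2(TPM + 1). For left over right in controls they were 22 with RLE size factors, 23 with library totals, 22 with DESeq2, 20 with voom with quality weights, 21 with length-scaled counts and 21 with limma on log2(TPM + 1). For left over right in cKO they were 20 with RLE size factors, 22 with library totals, 20 with DESeq2, 19 with voom with quality weights, 18 with length-scaled counts and 21 with limma on log2(TPM + 1). Leaving out each library in turn gave 0 to 6 for whole heart, 6 to 11 for left ventricle, 2 to 7 for right ventricle, 1 to 2 for interaction, 2 to 22 for left over right in controls and 7 to 20 for left over right in cKO.

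Replicate numbers were shared by the groups, but correlations of the deviations of same-numbered libraries ran from -0.116 to 0.237 and were over 0.1 for every pair in no set, so the numbers were not taken as pairs. Between left and right cKO ventricles they were 0.237, 0.053, 0.142 and 0.178, all positive, so pairing by heart is not settled there. With the replicate number as a block the counts were 0 for whole heart, 6 for left ventricle, 5 for right ventricle, 1 for interaction, 5 for left over right in controls and 9 for left over right in cKO, where the whole heart had 10 at an unadjusted p below 0.05, and with the block by heart within genotype they were 1 for interaction, 4 for left over right in controls and 8 for left over right in cKO.

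Log2 values that turned sign, all from a value not called, were as follows. With voom, right ventricle, Thbs1 at 0.34 and Fbn1 at 0.14. With limma on log2(TPM + 1), right ventricle, Fbn1 at 0.0044. With voom, left over right in controls, Sox9 at 0.89, Meox1 at 1.31, Twist1 at 0.97, Msx1 at 1.18, Scx at 0.83, Has2 at 1.65, Lum at 0.70, Thbs1 at 0.56, Cthrc1 at 2.30 and Mgp at 0.33. With limma on log2(TPM + 1), left over right in controls, Sox9 at 0.19, Meox1 at 0.44, Twist1 at 0.42, Msx1 at 0.20, Scx at 0.24, Has2 at 0.33, Lum at 0.079, Thbs1 at 0.17, Cthrc1 at 0.69 and Mgp at 0.13. With the replicate block, left over right in controls, Sox9 at 0.085, Meox1 at 0.15, Twist1 at 0.31, Msx1 at 0.43, Scx at 0.052, Has2 at 0.66 and Cthrc1 at 0.32. With the replicate block by heart, left over right in controls, Sox9 at 0.28, Meox1 at 0.56, Twist1 at 0.47, Msx1 at 0.49, Scx at 0.25, Has2 at 0.96, Lum at 0.0995, Thbs1 at 0.14, Cthrc1 at 1.12 and Mgp at 0.031. With length-scaled counts, left over right in controls, Twist1 at 0.0079. With each library left out in turn, log2 values of right ventricle that turned sign ranged as Bgn -0.082 to 0.31, Thbs1 -1.09 to 0.54 and Fbn1 -0.11 to 0.19. With each library left out in turn, log2 values of left over right in controls that turned sign ranged as Sox9 -0.60 to 1.12, Meox1 -0.78 to 1.65, Twist1 -0.41 to 1.31, Msx1 -0.48 to 1.49, Scx -0.55 to 1.06, Pdgfra -0.0056 to 0.77, Has2 -0.42 to 2.08, Lum -0.91 to 1.01, Postn -0.0035 to 1.28, Thbs1 -0.82 to 0.81, Cthrc1 -1.31 to 2.75, Mgp -0.26 to 0.46 and Fbn1 -0.058 to 0.24. 

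Ventricle depth limits genes such as Acan, Msx1 and Has2, and the 4 or 3 libraries a group limit all. The labels do not tie libraries to hearts.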
